A study of Ovis aries with 16 samples.

Results

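Hypoxia was compared with normoxia in the hypothalamus of fetal sheep under ketamine. Ketamine is an anesthetic and an antagonist of glutamate receptors of the N-methyl-D-aspartate type. The comparison rests on the 8 arrays whose titles name ketamine, 4 of normoxia plus ketamine (NK1 to NK4) and 4 of hypoxia plus ketamine (HK1 to HK4), out of 16 in the series. The other 8 were given saline, 3 under normoxia (NC) and 5 under hypoxia (HC). All were late-gestation Suffolk fetuses with chronic catheters. Ketamine or saline was given intravenously to the fetus, and the stimulus that followed lasted 30 min. In the HK and HC groups nitrogen led into the ewe's trachea lowered the oxygen that reached the fetus, and in the NK and NC groups the ewe breathed normally. Tissue was collected 24 h after the onset, which left 23.5 h of recovery under normoxia. Each array held RNA of 1 fetus. The study assigned whole pregnancies to normoxia or hypoxia and used mostly twins, but littermates are not named in the labels. The p-values therefore measure the spread between fetuses and take no account of litters.

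The hypothalamus governs the anterior pituitary, fluid balance, feeding and wakefulness through peptide-releasing neurons, and in the fetus it drives the hormonal response to low oxygen. Oxygen shortage is sensed in cells through hypoxia-inducible factors, which raise glucose uptake and glycolysis. In brain tissue an insult can also be followed hours later by an innate immune response, in which vessel walls display adhesion molecules, prostaglandins are made and leukocyte products appear. Collagens and proteoglycans form the basement membranes of brain vessels and the coverings of the brain.

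The share of probes well above background was 71.6% to 79.1% on these 8 arrays. Pairs of arrays correlated across tested probes at 0.963 to 0.984 (Pearson) inside a group and at 0.965 to 0.980 across groups. Slide explained 96.7% of the spread along the first principal component, which carried 32.5% of the variance. Slides were told apart by the scan date of the arrays, not by a slide label. Each slide so defined held 2 NK and 2 HK arrays. On the second component, 15.9% of the variance, group accounted for 59.9% of the spread, with HK1 at its far end and HK2 the nearest of the HK arrays to NK. All 10 neuropeptide genes looked up (SST, OXT, POMC, NPY, GAL, GHRH, AGRP, PMCH, TAC1 and GNRH1) were well above background on the 8 arrays. So were 670 of the 857 named genes tested. Levels are log2 processed signal minus the 75th percentile of the same array, and differences are given as HK minus NK on that scale.

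Of 12249 tested probes, 293 were higher and 772 lower in HK than in NK at an unadjusted p under 0.05 in limma, a total of 1065. That is 8.69% of those tested, with 2.39% higher and 6.3% lower. Rises were 27.5% of the calls on this scale, but 39.2% after quantile normalization, 38.5% after normexp and 40.2% in the deposited values. The difference passed 1 log2 unit in 30 of the higher and 99 of the lower probes. For 666 probes, 5.44% of those tested, the HK and NK arrays did not overlap, and 488 of them were also called. Only 112 of the called probes had a gene name. Counting each named gene by its brightest probe, 27 genes were higher and 46 lower among 857, or 3.15% and 5.37%. Fewer cells of a type and less RNA per cell cannot be told apart in whole tissue.

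**Figure D1:**
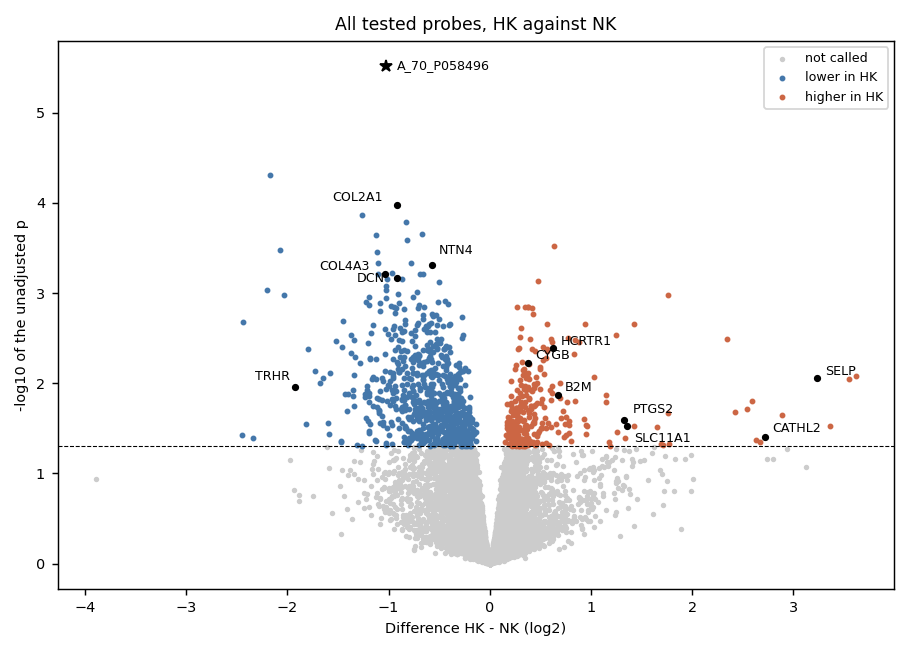
Difference HK minus NK in log2 (horizontal axis) against -log10 of limma's unadjusted p (vertical axis) for the 12249 tested probes. Blue points are lower and orange points higher in HK at p under 0.05 (dashed line). More probes lie on the lower side (772) than on the higher side (293), and the star marks the probe that passed adjustment.

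After Benjamini-Hochberg adjustment 1 probe, 0.00816% of those tested, passed (adjusted p = 0.0368 in limma). This probe, A_70_P058496, was designed on an expressed sequence tag from adult sheep fracture callus and has no gene name. It was printed on the array with the bases that follow, shown because no name stands for them.
A_70_P058496: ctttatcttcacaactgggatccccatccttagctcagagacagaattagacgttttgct
Its level was -5.10, -4.65, -5.11 and -4.72 in NK1 to NK4, and -5.86, -6.05, -5.75 and -6.04 in HK1 to HK4. Every HK array lay below every NK array. The difference was -1.03 ± 0.14 (SE), or 2.04-fold lower, with -1.08 on slide 1 and -0.98 on slide 2. It was only -0.31 with normexp and -0.19 in the deposited values. Under saline its mean was -5.02 ± 0.03 for NC (SD, n = 3) and -5.14 ± 0.22 for HC (SD, n = 5). It was well above background on 2 of the 4 HK arrays, so the low end of its fall is close to background. No probe passed with the replicate number or with slide as a block, where its unadjusted p was 0.00211 and 5.29e-06.

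Genes of vessel walls, leukocytes and prostaglandin synthesis had the largest rises. SELP encodes P-selectin, the adhesion molecule that endothelium and platelets display to catch leukocytes. Its level was -6.71, -5.61, -5.40 and -6.52 in NK and -1.58, -1.74, -5.56 and -2.43 in HK. HK3 lay within the NK range and the other HK arrays lay far above it. The mean rose from -6.06 ± 0.65 to -2.83 ± 1.86 (SD, n = 4 each), by 3.24 ± 1.06 (SE), or 9.43-fold. The probe was well above background on 1 NK array and on all HK arrays. A second SELP probe, not well above background on any NK array and above it on 3 HK arrays, was at least 4.80-fold higher. The rise was 4.51 on slide 1 and 1.97 on slide 2, and it was not called in the deposited values (1.18).

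PTGS2, the inducible cyclooxygenase of prostaglandin synthesis, was -1.64, -1.997, -2.13 and -1.64 in NK and -0.65, 0.62, -1.72 and -0.37 in HK. All HK arrays but HK3 lay above the NK range. The rise was 1.32 ± 0.53 (SE), or 2.50-fold (unadjusted p = 0.0258 in limma), and it was not called when HK2 (0.94), HK4, NK2 or NK3 was left out. SLCO2A1, the transporter that carries prostaglandins into cells, was -2.52, -2.67, -2.24 and -2.79 in NK and -1.43, -1.96, -2.06 and -2.39 in HK. It rose by 0.59 ± 0.20 (SE), with HK4 inside the NK range, and kept its call whichever HK or NK array was left out. These were the 2 genes called among 9 tested for prostaglandin synthesis and receptors, where 3.15% of all named genes were called higher. None of that list was called lower, and 3 lay on the lower side.

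SLC11A1, the metal transporter of phagocyte lysosomes, was -4.58, -3.94, -3.88 and -4.23 in NK and -1.90, -2.71, -3.75 and -2.86 in HK. The groups did not overlap, though HK3 was only just above the highest NK array. The rise of 1.35 ± 0.56 (SE), or 2.55-fold, was not called in the normexp or deposited values or without HK1 (1.05), HK2, NK1 or NK4. CATHL2, named BAC5 on the array, is a cathelicidin, an antimicrobial peptide stored in neutrophil granules. Its level was -2.75, -1.54, -3.77 and -1.06 in NK and -1.73, 2.78, -2.12 and 2.81 in HK. HK2 and HK4 were high and HK1 and HK3 lay inside the NK range. The rise of 2.72 ± 1.20 (SE), or 6.57-fold, was lost without HK2 (1.94), HK4 (1.92), NK1 or NK3, or when only the HK and NK arrays were fitted. CATHL3, another cathelicidin that was picked out after its values were seen, rose by 3.37 ± 1.39 (SE) with the same pair of high arrays (2.87 in HK2 and 2.51 in HK4, against -2.83 and -3.23 in HK1 and HK3), and was lost without the same 4 arrays and in the same smaller fit. Of the neutrophil list only CATHL2 and LTF (lactoferrin) were tested, and LTF differed by 1.24 and was not called. The summed level of this list ranged from -3.13 to -0.88 in NK and from -1.97 to 2.88 in HK, and its part in the other rises was not tested.

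Class I molecules present antigen on the cell surface, and both of their named chains rose. The class I gene that the array names OVAR, listed here as OLA-I, was 2.79, 2.87, 2.20 and 2.68 in NK and 3.20, 5.04, 3.38 and 3.95 in HK. B2M encodes beta-2-microglobulin, the light chain of the same molecules, and was 3.95, 4.15, 4.09 and 4.24 in NK and 4.54, 5.09, 4.56 and 4.94 in HK. Neither gene overlapped between the groups, and HK2 was the highest array for both. OLA-I rose by 1.26 ± 0.54 (SE), or 2.39-fold, and B2M by 0.67 ± 0.24 (SE), or 1.59-fold. The call of OLA-I was lost without HK2 (0.87), HK4, NK3 or NK4, while that of B2M held without any 1 of the 8. All 6 tested genes of the major histocompatibility complex list lay on the higher side, with a median of 0.53 against 0.02 over the 857 named genes. OLA-I and B2M were the 2 that were called, where 3.15% of all named genes were called higher. Class I genes are a family of similar, highly variable copies, so a probe may read several of them or miss an allele. A search of the probe descriptions for class I genes, made after the values were seen, found 13 tested probes without a gene name. All 13 were higher in HK, with a median difference of 1.17, and 3 were called, where 2.39% of all tested probes were called higher. With the replicate number as a block 8 were called, the same 3 among them. Of the 3, A_70_P001546 was saturated on 3 HK arrays and A_70_P016816 on 1, so their differences of 0.84 and 1.43 may be understated.

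**Figure D2:**
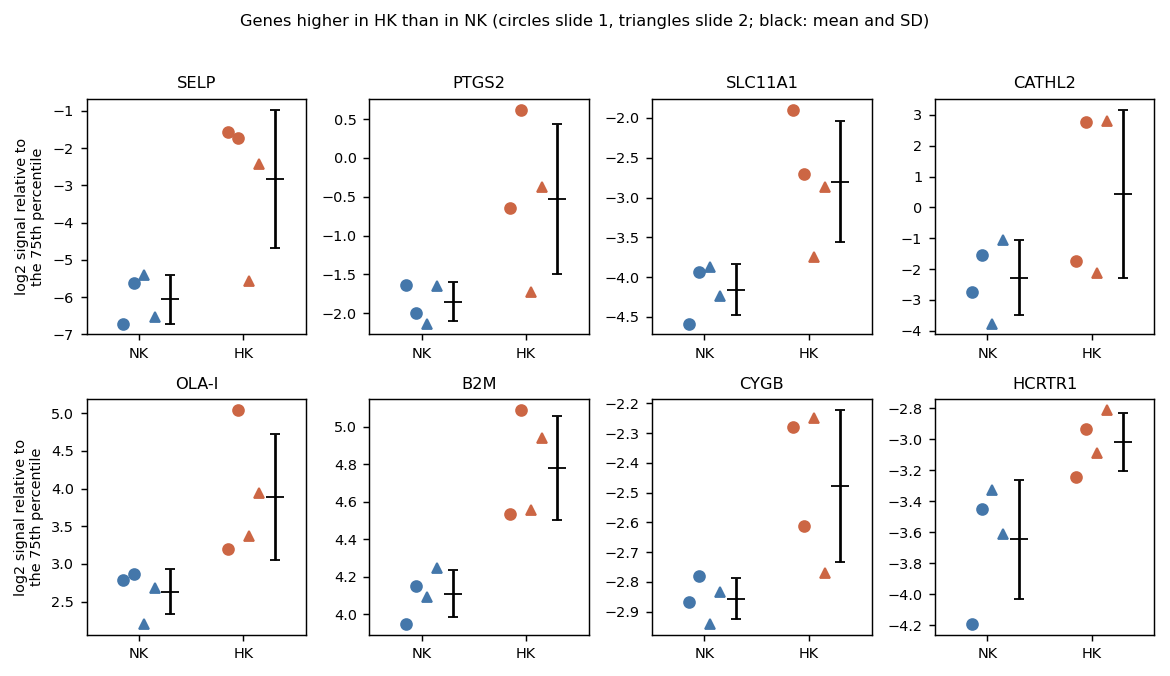
Log2 level after subtraction of each array's 75th percentile (vertical axes, which differ between panels) for 8 genes that were higher in HK. Each circle (slide 1) or triangle (slide 2) is 1 fetus, and the black bar gives the mean and SD of the group of 4. SELP, PTGS2 and CATHL2 overlap between the groups through 1 or more HK arrays, while the other 5 genes do not overlap.

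The study followed up 14 genes by PCR and chose them on these samples, so their direction here is not independent evidence. Of these, 10 were tested here, and PTGS2 was the only one called, where 3.15% of all named genes were called higher. CXCL10, an interferon-induced chemokine, was -1.72, -2.23, -4.15 and -3.38 in NK and -3.97, 3.60, -1.71 and 3.10 in HK. The difference of 3.13 ± 1.68 (SE) had a confidence interval (95%) from -0.49 to 6.74, and it was called when HK1 was left out (4.53). NFKBIA, an inhibitor of nuclear factor kappa B, differed by 0.54 ± 0.35 (SE) and was called without HK3 (0.78). IL1B differed by 0.32, PTX3 by 0.47, TLR4 by 0.14, MYD88 by 0.14, TLR2 by 0.12, CD14 by 0.00 and TNF by -0.07, and none of these was called. With the replicate number as a block IL1B was called (unadjusted p = 0.0417 in limma). For TNF the interval ran from -1.36 to 1.22 and for CD14 from -1.24 to 1.24, so both intervals reach beyond 1 log2 unit in each direction. The median over the 10 was 0.23, and 9 of them were on the higher side.

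Other immune lists held few calls. Among 18 cytokines and chemokines, IL18 and TGFB2 were called lower and none higher, where 5.37% of all named genes were called lower. Of the 18, 10 lay on the higher side and 8 on the lower, with a median of 0.05. IL18, an inflammasome-released cytokine, was -2.97, -2.33, -2.71 and -2.87 in NK and -3.26, -3.01, -3.18 and -3.19 in HK. It fell by 0.44 on the log2 scale (SE 0.13), with no overlap and with a second probe that differed by -0.45. In the deposited values the fall was -0.21. TGFB2, a growth factor of the transforming growth factor beta family, was 0.92, -0.51, 0.73 and -0.22 in NK and -1.65, -0.73, -0.88 and -0.64 in HK. Its fall of -1.20 ± 0.48 (SE), or 2.30-fold, was lost without HK1, NK1 or NK3 (-0.97 to -1.03). C3, the central complement component, fell by 0.57 on the log2 scale, carried by HK1 (2.38) and HK3 (2.65) against an NK range of 3.48 to 3.74, and was lost without HK1 (-0.36), HK3, NK1, NK2 or NK4 and with the replicate block (unadjusted p = 0.0501). No gene was called among 6 cytokine and chemokine receptors, 13 genes of the Toll-like receptor pathway, 8 of the interferon response, 12 markers of microglia and macrophages or 5 of lymphocytes. In the interferon list 7 of 8 lay on the higher side, with a median of 0.41.

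Collagens and other matrix genes were the named group with the most calls. Of 15 tested, 6 fell (COL4A3, MMP14, DCN, COL2A1, COL1A2 and COL3A1), none rose, and 13 were on the lower side, with a median of -0.28. The share called lower over all named genes was 5.37%. The list was among those chosen with earlier results of these data known. COL2A1, a fibrillar collagen of cartilage and embryonic tissue, was -0.66, -0.53, -0.55 and -0.73 in NK and -1.77, -1.68, -1.54 and -1.17 in HK. It fell from -0.62 ± 0.09 to -1.54 ± 0.26 (SD, n = 4 each), by -0.92 ± 0.17 (SE), or 1.89-fold, the smallest unadjusted p of any named gene (0.000104, adjusted p = 0.347 in limma). DCN encodes decorin, a small proteoglycan that binds collagen fibrils. Its level was 2.15, 2.59, 2.37 and 2.84 in NK and 1.53, 1.66, 1.34 and 1.73 in HK, a fall of -0.92 ± 0.21 (SE). A second DCN probe fell by 0.76 on the log2 scale, also without overlap.

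COL4A3, a basement membrane collagen chain, was -4.33, -4.15, -4.49 and -4.24 in NK and -5.67, -4.74, -5.48 and -5.46 in HK. It fell by 1.04 on the log2 scale (SE 0.24), or 2.05-fold, and was well above background on all NK and 3 HK arrays. The fall was much smaller in the normexp (-0.32) and deposited values (-0.20), where it was still called. MMP14, a membrane-bound metalloproteinase that cleaves collagen, was -5.36, -5.21, -4.57 and -5.10 in NK and not well above background on any HK array, which gives a fall of at least 1.63-fold. It was not called in the normexp or deposited values. COL1A2 (-0.79 ± 0.34, SE) and COL3A1 (-0.70 ± 0.32, SE) encode chains of the fibrils of connective tissue. Both lost their calls in the normexp and deposited values and when most single arrays were left out, and COL3A1 also with slide as a block (unadjusted p = 0.0554). The calls of COL2A1, DCN and COL4A3 held without any 1 of the 8 arrays.

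Further collagen probes have no gene name but a description in the files, which was searched after the values were seen. Of 9 such tested probes 8 were lower and 4 were called, all of them lower, where 6.3% of all tested probes were called lower. A probe described as collagen alpha-1(III), A_70_P048191, was -3.36, -2.68, -2.25 and -2.99 in NK and -5.08, -4.50, -5.50 and -4.90 in HK. It fell by 2.17 on the log2 scale (SE 0.37), or 4.51-fold, with no overlap. Both probes described as collagen alpha-1(I) fell as well, by 0.96 and 0.72 on the log2 scale, and 1 described as alpha-1(XVI) fell by 1.1 with overlap. The alpha-1(XVI) probe was well above background on only 2 NK, 1 HK and 1 NC array, against 5 HC arrays, so its fall is close to background. Probes described as type II, V and XII and the 2 of type IV were not called, and the type II probe differed by -0.29 ± 0.45 (SE), unlike that of COL2A1. Of the called collagen probes, 4 lie in the repeat of the collagen helix and are shown because that repeat is shared within the family. Capitals mark GGN triplets, which encode glycine in frame, at each position of the repeat Gly-X-Y. The offset with the most such triplets was taken.
COL3A1, A_70_P006991: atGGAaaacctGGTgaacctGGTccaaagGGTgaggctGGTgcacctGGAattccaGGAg
alpha-1(III), A_70_P048191: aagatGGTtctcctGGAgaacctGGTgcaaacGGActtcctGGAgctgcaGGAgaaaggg
COL1A2, A_70_P024601: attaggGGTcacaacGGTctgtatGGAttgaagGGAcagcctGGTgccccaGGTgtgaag
alpha-1(I), A_70_P047991: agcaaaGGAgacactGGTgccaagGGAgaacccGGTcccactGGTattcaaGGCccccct
Glycine filled every such position, 7 of 7 in COL3A1 and 6 of 6 in the other 3. The other called collagen probes, not shown, do not hold the repeat. At the offset with the most GGN triplets, these filled 2 of 6 positions in COL2A1 and 2 of 7 in COL4A3. They filled 2 of 6 in alpha-1(XVI) and 1 of 7 in the other alpha-1(I) probe. The reading frame of these probes was not determined, so such triplets need not encode glycine. The uncalled type II probe and both type IV probes do hold it. On the probes within the repeat, signal from related chains cannot be told apart from that of the named chain.

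The saline groups give the level without ketamine. The NK mean was above the NC mean and the HK mean below it for all 6 called matrix genes. Those 6 were called on HK minus NK, so this order is not independent of that choice. The mean of DCN was 1.94 ± 0.34 for NC (SD, n = 3) and 1.92 ± 0.38 for HC (SD, n = 5), against 2.49 ± 0.30 in NK and 1.57 ± 0.17 in HK. For COL2A1 the means were -0.96 ± 0.14 (NC) and -1.12 ± 0.34 (HC). The unnamed alpha-1(III) probe A_70_P048191 also fell under saline, from a mean of -3.40 (NC) to -4.27 (HC). That difference was -0.86 ± 0.39 (SE, unadjusted p = 0.0424 in limma), with an interaction of -1.31 ± 0.54 (SE). Under saline the called alpha-1(I) probes differed by -0.32 and -0.22 and the alpha-1(XVI) probe by 0.62, none of them called. Markers of other tissues that could carry matrix genes also lay lower in HK, without a call. The summed level of the choroid plexus list (TTR and IGF2) was 0.51, 4.40, 3.65 and 3.89 in NK1 to NK4 and 1.56, 1.85, 1.52 and 2.74 in HK1 to HK4. All NK arrays but NK1 were above every HK array. TTR differed by -1.75 ± 1.23 (SE) and IGF2 by -1.05 ± 0.67 (SE). CNN1, the only tested marker of pericytes and smooth muscle, differed by -0.62 ± 0.49 (SE), with 1.03 to 2.73 in NK and 0.78 to 2.50 in HK. Their part in the matrix falls was not tested.

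**Figure D3:**
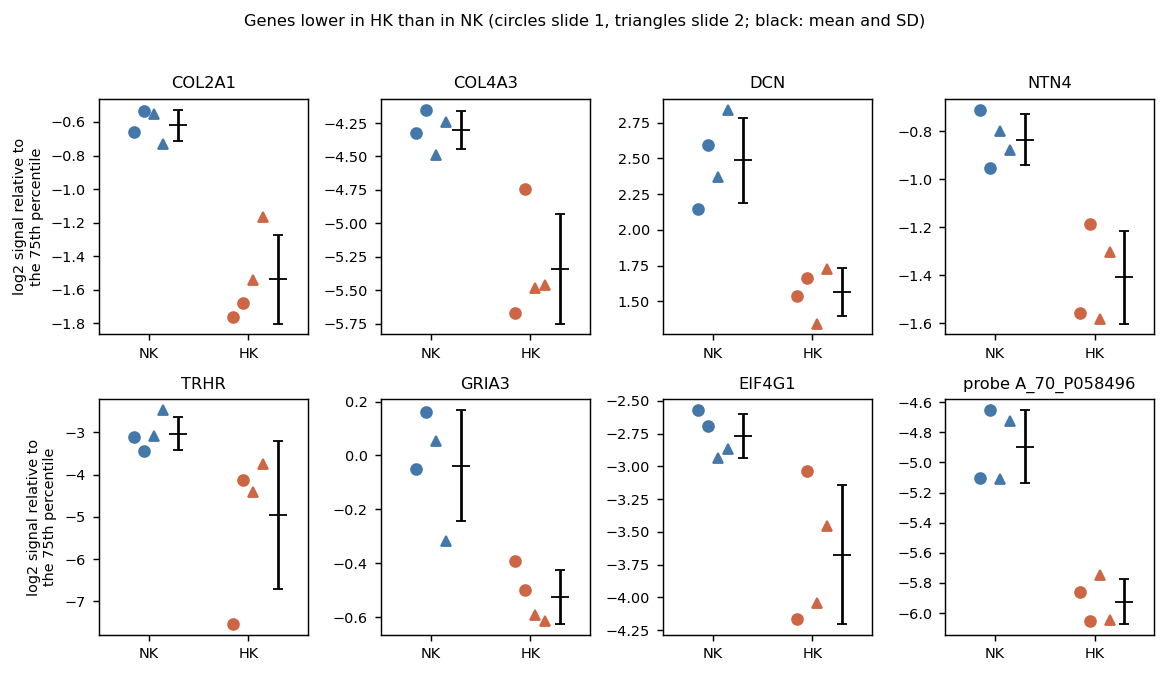
Log2 level after subtraction of each array's 75th percentile (vertical axes, which differ between panels) for 7 genes and 1 unnamed probe that were lower in HK. Each circle (slide 1) or triangle (slide 2) is 1 fetus, and the black bar gives the mean and SD of the group of 4. No panel has an HK array above the lowest NK array, and in TRHR and EIF4G1 the arrays HK1 or HK3 lie farthest down.

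Peptide and transmitter receptors changed in both directions. TRHR, the receptor of thyrotropin-releasing hormone, was -3.12, -3.43, -3.09 and -2.47 in NK and -7.54, -4.12, -4.41 and -3.75 in HK. Its fall of -1.92 ± 0.66 (SE), or 3.80-fold, was the largest of any gene named here and came to -1.06 without HK1, which was not well above background. It was -0.76 with normexp and -0.57 in the deposited values. A second TRHR probe fell by 1.65 on the log2 scale. HCRTR1 encodes the first orexin receptor, which serves wakefulness and feeding. It was -4.19, -3.45, -3.33 and -3.61 in NK and -3.24, -2.93, -3.09 and -2.81 in HK, a rise of 0.63 ± 0.18 (SE) with no overlap, or 1.54-fold, and of 0.28 in the deposited values. Its probe, shown as that of the only receptor of the peptide list called higher, reads as follows.
HCRTR1, A_70_P026556: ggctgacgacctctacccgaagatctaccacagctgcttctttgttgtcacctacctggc
Over all named genes 3.15% were called higher and 5.37% lower. The other 23 of 25 hypothalamic peptides and receptors were not called. Among them OXT differed by 0.41, GAL by 0.54, AGRP by 0.77, POMC by -0.08 and NPY by 0.14.

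Of 17 receptors and transporters for glutamate, GABA and other transmitters, GRIA3 and GRIA4 were called lower, where 5.37% of all named genes were. On the lower side lay 15 of the 17, with a median of -0.23 against 0.02 over all named genes. GRIA3 and GRIA4 encode subunits of AMPA receptors, the fast glutamate receptors. GRIA3 was -0.05, 0.16, 0.06 and -0.32 in NK and -0.39, -0.50, -0.59 and -0.62 in HK, a fall of -0.49 ± 0.17 (SE) without overlap. GRIA4 fell by 0.45 on the log2 scale and was lost without any of 6 single arrays (HK1, HK3, HK4, NK1, NK2 or NK4). GRIN1, the obligatory subunit of the receptor that ketamine blocks, differed by -0.32 ± 0.18 (SE) on its brightest probe and was not called. Its other pair of probes, which cover nearly the same stretch of the message as each other, fell by 0.84 and 0.85 on the log2 scale without overlap. The 3 probes of GRIN1 therefore disagree on the call and share the direction. They were singled out after their values were seen.

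Growth and metabolic genes were next. GHR, the growth hormone receptor, was -2.73, -2.28, -2.13 and -2.55 in NK and -3.33, -2.64, -3.40 and -2.95 in HK, and fell by 0.66 on the log2 scale. IGF1, the growth factor that growth hormone induces, was -4.32, -4.14, -4.60 and -4.26 in NK and -5.56, -4.36, -4.89 and -4.67 in HK, and fell by 0.54 on the log2 scale. HK2 lay inside the NK range for both genes. IGF1 was lost without HK1 (-0.31) or NK2, when only the HK and NK arrays were fitted and in the deposited values, and GHR after quantile normalization or without HK1, HK3, NK2 or NK3. Over all named genes 5.37% were called lower. The other 10 tested genes of the insulin-like growth factor axis were not called, among them IGF2 (-1.05 ± 0.67, SE) and IGFBP3 (1.16 ± 0.60, SE). CCND2, a cyclin that drives entry into the cell cycle, fell by 0.67 on the log2 scale through HK1 (0.91) and HK3 (1.74) against an NK range of 2.37 to 2.60. That call was lost when only the HK and NK arrays were fitted and with the replicate block (unadjusted p = 0.0721), and the difference was -0.36 without HK1.

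Of 13 hypoxia-inducible factors and their targets, 3 were called higher and none lower, where 3.15% of all named genes were called higher. SLC2A3, the glucose transporter of neurons, was 3.37, 3.31, 3.42 and 3.37 in NK and 4.07, 3.82, 3.61 and 3.83 in HK. PFKL, a phosphofructokinase of glycolysis, was 0.81, 0.79, 0.86 and 0.75 in NK and 1.11, 1.00, 1.11 and 0.89 in HK. CYGB, the oxygen-binding cytoglobin, was -2.87, -2.78, -2.94 and -2.83 in NK and -2.28, -2.61, -2.25 and -2.77 in HK. None of the 3 overlapped between the groups. Their rises were small, 0.46 ± 0.21, 0.22 ± 0.10 and 0.38 ± 0.12 (SE), or 1.38-fold, 1.16-fold and 1.30-fold. CYGB kept its call under every alternative tried, while SLC2A3 and PFKL lost theirs without most single arrays and in the normexp and deposited values. LDHA (0.46 ± 0.22, SE), SLC2A1 (0.42 ± 0.24, SE), EPAS1 (0.46 ± 0.23, SE) and VEGFA (-0.56 ± 0.40, SE) were not called. HIF1A was not called on its brightest probe (0.35) and was on a dimmer one (0.51).

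Transporters and barrier genes followed. ABCB1, the drug efflux pump of the blood-brain barrier, rose by 0.37 ± 0.17 (SE), mainly in HK1 (-0.56 against an NK range of -1.73 to -1.34), and was 0.17 and not called without HK1. The remaining 15 of 16 endothelial and barrier genes were not called, and the summed level of that list was 5.82 to 5.99 in NK and 5.81 to 6.07 in HK. Over all named genes 3.15% were called higher. BCL2L1, an inhibitor of cell death, rose by 0.40 ± 0.15 (SE) without overlap and was the only gene called of 15 for heat shock, redox and cell death. Its call was lost in the deposited values (0.11) and without HK4 (0.27) or NK3 (0.31), and the rise was 0.17 with normexp. CTSD, the lysosomal protease cathepsin D, rose by 0.15 ± 0.07 (SE), a call lost under most alternatives and with the replicate block (unadjusted p = 0.122).

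Some falls outside the lists shared HK1 as the lowest array. EIF4G1, a scaffold of translation initiation, was -2.57, -2.69, -2.94 and -2.87 in NK and -4.17, -3.03, -4.04 and -3.45 in HK, a fall of -0.91 ± 0.22 (SE), or 1.87-fold, and of -0.39 in the deposited values. DKC1, which modifies ribosomal RNA and maintains telomerase, fell by 0.87 on the log2 scale (SE 0.25). EIF3A, another initiation factor, fell by 0.86 (SE 0.30) and PSIP1, a chromatin-bound coactivator, by 0.96 (SE 0.33). HK1 was the lowest array for all 4, at -1.10 for DKC1, 0.22 for EIF3A and -0.33 for PSIP1, and HK2 the nearest to NK. None of the 4 overlapped, which the naming rule required of genes outside the lists. Without HK1 the differences were -0.61 for DKC1, -0.58 for EIF3A, which was then not called, and -0.66 for PSIP1. None of 16 ribosomal protein genes was called, and 15 lay on the higher side, with differences between -0.01 and 0.22.

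The other named genes that met the rule moved less. NTN4, a netrin of basement membranes, was -0.71, -0.95, -0.80 and -0.88 in NK and -1.56, -1.19, -1.58 and -1.30 in HK. Its fall was -0.57 ± 0.13 (SE), without overlap, which the rule required. AGGF1, an angiogenic factor, fell by 0.62 on the log2 scale, LOC100191035 by 0.76, and LOC443008, which the files describe as a myosin-binding phosphatase subunit, by 0.51. RPA1, a single-strand DNA binding protein whose NK2 spot was an outlier and left out, rose by 0.34, PPCS, an enzyme of coenzyme A synthesis, by 0.23, SLC25A26, the mitochondrial S-adenosylmethionine carrier, by 0.22 and DTNBP1, a protein of vesicle traffic, by 0.17. The calls of SLC25A26 and DTNBP1 were lost with the replicate block (unadjusted p = 0.0585 and 0.11). LHB, a pituitary hormone subunit, rose by 0.21 on its bright probe, while a second, much dimmer probe differed by -0.39 and was not called. It was the only gene called of 9 anterior pituitary markers, where 3.15% of all named genes were called higher. The summed level of these markers was 3.08 to 3.82 in NK and 3.33 to 3.52 in HK.

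**Figure D4:**
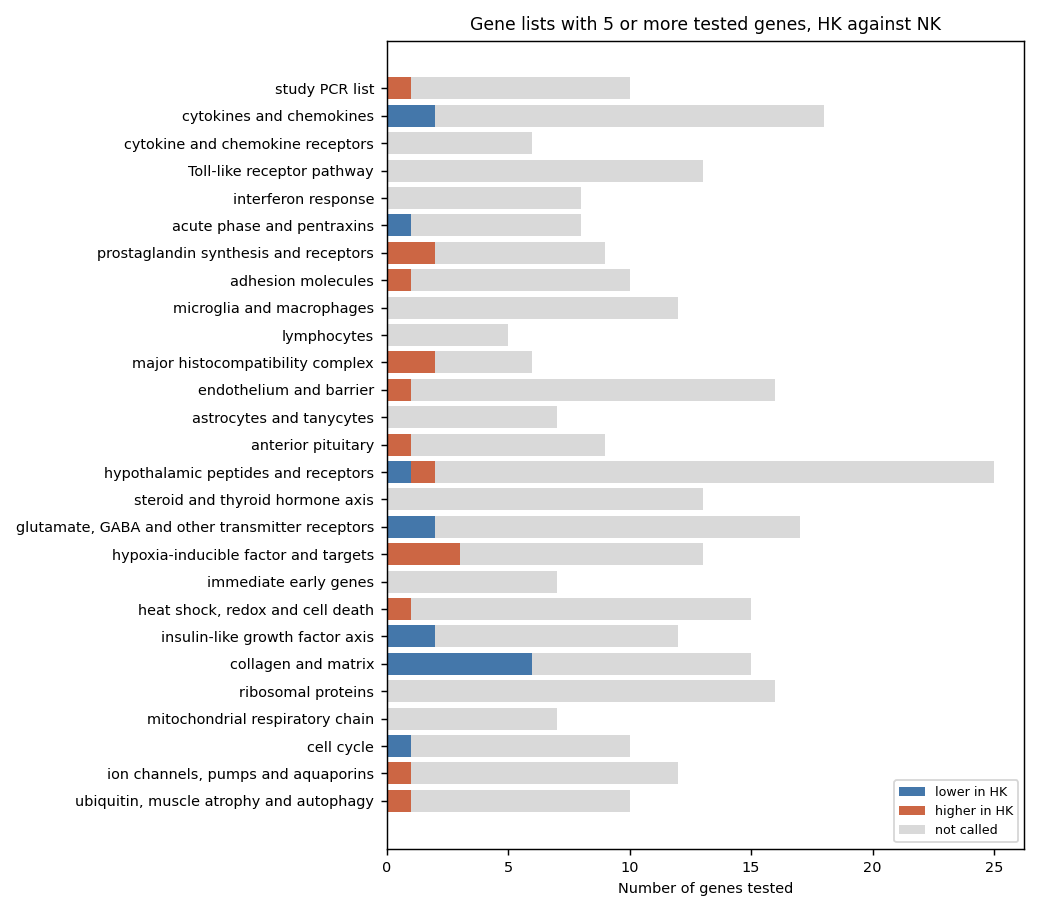
Number of tested genes (horizontal axis) in each gene list with 5 or more, split into genes lower in HK (blue), higher in HK (orange) and not called (grey) at an unadjusted p under 0.05. Collagen and matrix has the longest blue bar (6 of 15), and no list has more than 3 genes higher.

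Lists with no call were astrocytes and tanycytes (7 genes), red blood cells (4), the steroid and thyroid hormone axis (13), immediate early genes (7) and the mitochondrial respiratory chain (7). No tested gene stood for neurons or oligodendrocytes under the markers listed, so their share in the tissue was not measured.

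To ask whether the hypoxia difference was another one under ketamine than under saline, HK minus NK was set against HC minus NC in an interaction term, which uses separate fetuses on each side. It was called for 456 probes, 3.72% of those tested, and for none after adjustment (smallest adjusted p = 0.997 in limma). That share is below the 5% that this threshold would give with no difference at all. Among the called genes described above the smallest p-values belonged to COL4A3, NTN4, COL2A1, DCN and IL18. COL4A3 differed by -1.04 under ketamine and by 0.12 ± 0.24 (SE) under saline, an interaction of -1.16 ± 0.34 (SE). NTN4 and COL2A1 had interactions of -0.58 ± 0.18 and -0.76 ± 0.25 (SE), and DCN of -0.90 ± 0.30 (SE). IL18 fell under ketamine and differed by 0.11 ± 0.14 (SE) under saline, an interaction of -0.55 ± 0.19 (SE). These 5 kept their unadjusted calls with every scaling, with slide as a block and without any 1 of the 16 arrays, but the interaction of COL4A3 shrank to -0.39 with normexp and -0.24 in the deposited values, and that of IL18 to -0.34 and -0.26. All were described because HK minus NK was called, and that difference is 1 side of the interaction, so the count of such genes is no evidence of its own.

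**Figure D5:**
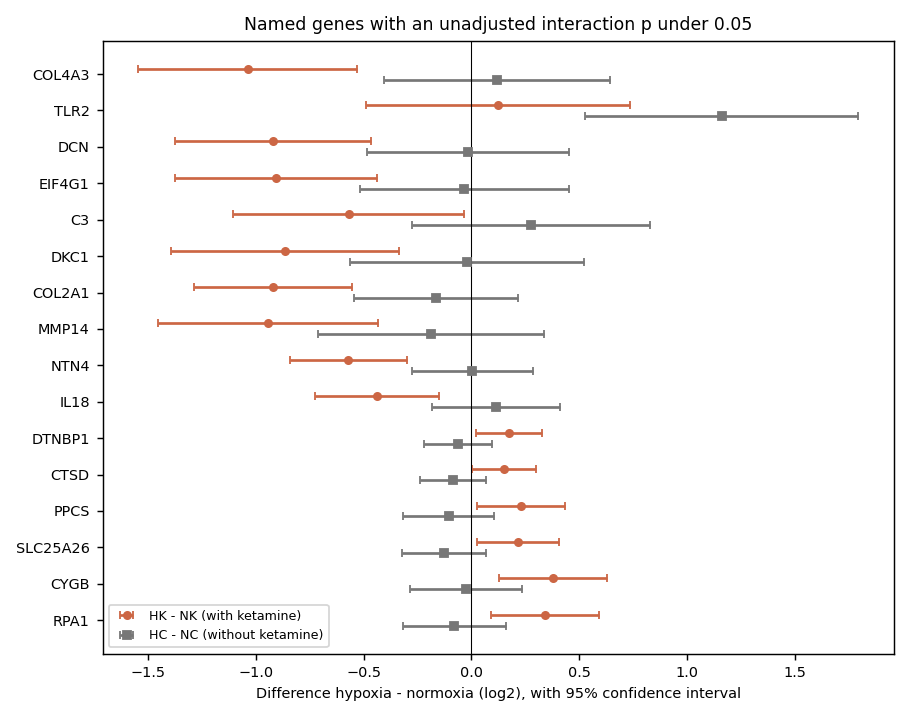
Hypoxia minus normoxia in log2 (horizontal axis) with its 95% confidence interval, under ketamine (HK minus NK, orange circles) and under saline (HC minus NC, grey squares), for the 16 genes described here whose interaction had an unadjusted p under 0.05. The grey intervals cross 0 for every gene but TLR2, and the orange intervals do not cross 0 except for TLR2.

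The leading immune genes gave no firm difference between the 2 settings. SELP rose by 3.24 under ketamine and by 4.71 under saline, with an interaction of -1.47 ± 1.52 (SE). For PTGS2 the rises were 1.32 and 2.96, with an interaction of -1.63 ± 0.76 (SE, unadjusted p = 0.0501 in limma). SLC11A1 had 1.35 and 2.26, CATHL2 2.72 and 1.85, and OLA-I 1.26 and 1.15, and none of their interactions was called. SLC2A3 rose by 0.46 under ketamine and by 1.06 ± 0.22 (SE) under saline, with an interaction of -0.59 ± 0.30 (SE). TLR2 was the exception among the PCR genes, at 0.12 ± 0.29 (SE) under ketamine and 1.16 ± 0.30 (SE) under saline, an interaction of -1.04 ± 0.41 (SE, unadjusted p = 0.0244 in limma).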

How the data were processed

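RNA of 16 fetal hypothalami, 1 array each, was hybridized to 1-color Agilent sheep arrays. The authors deposited scanner output, in which the processed signal is an intensity on a linear scale, background-subtracted by the feature extraction software and not scaled between arrays. The authors also deposited a table of log2 values, used as an alternative. Control spots (536 of 15744) and outlier spots (0.0801%) were left out, saturated spots kept, log2 taken, each array's 75th percentile subtracted and spots of a probe averaged. A probe was tested if well above background on at least 3 arrays (12249 of 15008). Names came from the files and from sheep RefSeq genes (ARS-UI_Ramb_v3.0, with 726 matches for 750 probes listing a RefSeq entry), and 89.0% of probes had no name. Probes have no coordinates in the files, and none are given.

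Groups were compared with limma 3.58.1 in R 4.3.3 by 4 group means over all 16 arrays, with empirical Bayes moderation (13.7 degrees of freedom), two-sided, at the study's unadjusted p-value threshold of 0.05 and with p-values adjusted by Benjamini-Hochberg across every tested probe. The fit was tested on simulated data. Genes were counted by their brightest tested probe. Those named were up to 15 rises and 15 falls with the largest difference among called, non-overlapping genes well above background on all 4 arrays of a group, plus called genes of the lists and the PCR genes. Exceptions are stated, and 1 gene that met the rule is not reported here. Where no array of 1 group was well above background, the fold is a bound ("at least"): the dim group's value on each array was raised to that array's faintest well-above-background signal if it lay under it. The members, lists and rules were chosen with earlier results of these data known. The number of arrays limits the precision.

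The titles number the replicates. Deviations from the group means correlated between same-numbered HK and NK arrays at 0.193, 0.276, 0.308 and 0.338, and the number was also fitted as a block. Same-numbered arrays share a slide. Differently numbered pairs on the same slide correlated alike, at 0.246 (NK2 and HK1), 0.301 (NK1 and HK2), 0.226 (NK4 and HK3) and 0.258 (NK3 and HK4). A pairing by number therefore cannot be told apart from the slide in these correlations. Alternatives were quantile normalization, median centering, normexp with an offset of 50, the deposited values, 2 filters, slide as a block, only the 8 arrays, 1 probe per gene and leaving out each array.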

Additional observations from a re-analysis of the deposited data

Results flagged for a closer look

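Single arrays stood far from the other 3 of their group in 6 of 104 checks over 52 genes, at a criterion that chance meets in about 1 of 20. They were TNF in NK4 (-5.65) and in HK2 (-3.17), TLR4 in HK2 (-4.62), ABCB1 in HK1 (-0.56), BCL2L1 in HK4 (-3.43) and NFKBIA in NK3 (1.05).

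The unadjusted interaction test of limma, which sets the hypoxia difference under ketamine against that under saline, called 16 genes. Their interactions were -1.16 for COL4A3, -0.75 for MMP14, -0.90 for DCN, -0.76 for COL2A1, -0.87 for EIF4G1, -0.84 for DKC1, -0.58 for NTN4, -0.85 for C3, -0.55 for IL18 and -1.04 for TLR2. They were 0.24 for CTSD, 0.24 for DTNBP1, 0.35 for SLC25A26, 0.34 for PPCS, 0.42 for RPA1 and 0.40 for CYGB. None passed adjustment. All but TLR2 were described because HK minus NK was called, which is 1 side of this test, and over all tested probes 3.72% were called.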

How the results depend on the processing

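The number of called probes stayed within 1.5 times of 1065 under every alternative but 1 probe per gene name, which tests far fewer probes (65 called, 21 higher and 44 lower). Leaving out 1 array gave 767 (without NK2) to 1463 (without HK2) in all, 186 (without NK3) to 496 (without HK2) higher and 556 to 967 lower. The single probe past adjustment was lost, with a count of 0, under quantile normalization, normexp, the deposited values, no filter, the filter on all 16 arrays, slide as a block, the replicate block, only the HK and NK arrays and 1 probe per gene, and the count was 0 to 1 on leaving out an array. With the replicate block 1191 probes were called, 362 higher and 829 lower, and among the genes described it changed the calls named above for C3, CCND2, CTSD, DTNBP1, SLC25A26 and IL1B and no other. Over all 857 named genes 58 were called with and without the block, 15 only without it and 41 only with it. Several differences shrank by over 1.5 times in the normexp or deposited values, among them those of COL4A3, TRHR, HCRTR1, EIF4G1 and IL18 as given beside them. In the deposited values GHR came to -0.40, GRIA4 to -0.22, IGF1 to -0.11, COL1A2 to -0.27, COL3A1 to -0.16 and MMP14 to -0.09. There SLC11A1 came to 0.60, BCL2L1 to 0.11 and RPA1 to 0.11. The interaction was called for 324 to 659 probes without single arrays.

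Of the 43 called genes described, 18 kept their call without any HK or NK array, 42 with slide as a block, and 15 under every alternative. Directions turned only for PCR genes that were not called. TNF was 0.0461 in the deposited values, 0.0392 with normexp and 0.0346 with quantile normalization, above 0 without HK1, HK3, HK4, NK2 or NK3, and between -0.67 and 0.17 on leaving out an array. CD14 was -0.00648 in the deposited values and -0.0169 with normexp, below 0 without HK1, HK2 or NK3, and between -0.39 and 0.26 on leaving out an array. TLR2 ranged from -0.0378 (without HK4) to 0.30 and MYD88 from -0.0715 (without NK3) to 0.26. The causes were not tested.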
